A study of Rattus norvegicus with 2 samples.

Results

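Expression of 7 transcription factor genes was examined in RBL-2H3 cells: Egr1, Egr2, Egr3, Nr4a1, Nr4a2, Nr4a3 and Csrnp1. They were chosen by symbol as early transcription factors of antigen receptor activation, and 7 of 7 were found among the 15409 gene symbols measured. RBL-2H3 is a basophilic leukaemia line from rat that often stands in for mast cells. The 2 groups of this strand-specific RNA sequencing study held 1 library each. The treated library came from RBL-2H3 cells given fine particulate matter (PM2.5) plus IgE and DNP-HSA, the antigen that crosslinks receptor-bound IgE. The saline library came from RBL-2H3 cells given normal saline. The labels give no time, and the title of the treated sample carries a figure after PM but no dose unit. Whether IgE and antigen were also given to the saline cells is not stated. Because each group is 1 library, the differences below carry no replicate check, and the conditions could not be tested against each other.

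The EGR proteins are zinc finger transcription factors that bind GC-rich DNA, and the NR4A proteins are orphan nuclear receptors that act without a known natural ligand. Genes of both families are transcribed within minutes of receptor stimulation, when ERK, calcium and cyclic AMP signals reach serum response factor, CREB, MEF2 and NFAT already bound or ready in the cell, and their messages are short-lived. In mast cells, crosslinking of the high-affinity IgE receptor is a known inducer of Egr1, Egr2 and the Nr4a genes. Csrnp1, also called Axud1, is a nuclear protein named for its cysteine- and serine-rich region and first described as an axin-induced gene.

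The treated library held 3964955 reads over the listed transcripts and the saline library 7279671, which made the saline library 1.84 times as deep. Mast cell markers were present in both libraries, with 9 of 10 fixed markers measured and summed normalised counts of 26027 in treated cells and 27511 in saline cells. Within these sums Cpa3 was higher in treated cells (normalised counts of 508.7 treated and 151.8 saline) and Hdc lower (1178 treated and 2473 saline). The other 7 measured markers differed by less than 2-fold. The T cell markers Cd3e, Cd3d, Cd3g, Cd4 and Cd8a and 4 of 4 B cell markers were not among the measured genes. The T cell marker Lck had 22 treated and 24 saline reads. Of 5 macrophage markers 3 were measured, with summed normalised counts of 510.4 in treated cells and 1273 in saline cells. Csf1r had normalised counts of 472.4 in treated cells and 1215 in saline cells, and Cd68 had 0 and 19 reads in the treated and saline libraries. Adgre1 was nearly level, with 23 treated and 48 saline reads and normalised counts of 38.0 in treated cells and 41.6 in saline cells. Of 5 fibroblast markers 4 were measured, with summed normalised counts of 305.6 in treated cells and 225.5 in saline cells, and of 4 epithelial markers only Krt8, with 12 treated and 11 saline reads. How far other cell types moved with the results below was not tested. In such bulk RNA, fewer cells that express a gene and less RNA per cell cannot be told apart.

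All 7 genes were lower in the library labelled as treated. The direction of each difference rests on the labels and column names as deposited, and these 7 early activation genes were on the low side in the library labelled with IgE and antigen. Together the 7 genes they took 977 reads there, 0.0246% of the library (exact binomial 95% interval 0.0231 to 0.0262), and 14190 reads or 0.195% of the saline library (0.192 to 0.198). Log2 folds are given for the treated over the saline library, on the normalised count plus 1 as the authors deposited it. A gene was called lower or higher by size alone, when its log2 fold reached 1 in that direction and its normalised count reached 1 in either library. By that rule 7 of 7 members were lower and 0 higher, against 19.1% of all 15097 symbols lower and 12.1% higher. The members were chosen with earlier results of these data known, so this count is a description. The median log2 fold of the members was -3.41, or -3.31 with genes at 0 reads set to their bound, against -0.07 over all symbols tested. Among the 9469 symbols whose normalised count reached 50 in a library, 8.59% were lower and 7.47% higher by the rule, and 0.845% (80 symbols) were as low as Egr1, the member nearest to 0. Since a member set this cut, those 80 include by construction the 6 members whose count reached 50. Of these, Egr2, Egr3, Nr4a2 and Nr4a3 reached 50 through the saline library alone, so the share is a description. Nr4a1 is missing from this comparison since its level stayed under 50. Intervals beside folds below are exact 95% intervals for the plain ratio, with nothing added, and like the binomial ones they cover counting error only.

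**Figure D1:**
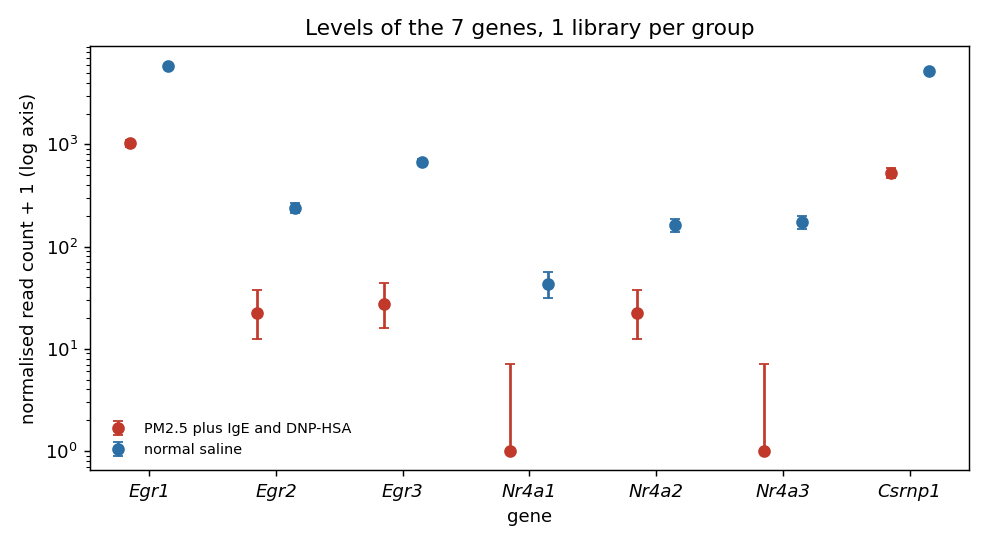
Normalised read count plus 1 (log axis) of each gene in the library of cells given PM2.5 plus IgE and DNP-HSA (red, left of each pair) and in the normal saline library (blue, right). Points are the values of 1 library each and bars are exact Poisson 95% intervals of the count; all 7 genes sit lower in the treated library, with Nr4a1 and Nr4a3 at 0 reads.

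Egr1 (ENSRNOG00000019422), the most studied immediate early gene of the EGR family, reached a normalised count of 1017 in treated cells and 5797 in saline cells. These values stood on 616 treated and 6684 saline reads, the deepest coverage of the 7 genes. The log2 fold was -2.51 (-2.63 to -2.39), a level 5.7-fold lower in treated cells. At the saline level, the treated library would have been due 3510 reads.

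Egr2 (ENSRNOG00000000640), known from T cells as a brake on activation and from Schwann cells as a driver of myelination, had normalised counts of 21.5 in treated cells and 237.6 in saline cells. There were 13 treated and 274 saline reads, with 143.9 due in the treated library at the saline level. Its log2 fold was -3.41 (-4.396 to -2.67). The treated library therefore kept a small but nonzero Egr2 signal.

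Egr3 (ENSRNOG00000017828), which works alongside Egr2 in lymphocytes and is required for muscle spindle formation, had the lowest fold of the EGR genes. Its normalised count was 26.4 in the treated library, against 667.8 in the saline library. With 16 treated and 770 saline reads, the log2 fold was -4.61 (-5.47 to -3.95). The fold of Egr1 exceeded that of Egr3 by 2.15 on the log2 scale (exact conditional 95% interval 1.43 to 2.97) and that of Egr2 by 0.96 (0.15 to 1.89). Egr2 and Egr3 could not be separated at this depth, since their difference of 1.19 had an interval of -0.0065 to 2.36.

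The Nr4a genes were sparsely read, and 2 of the 3 had no read in the treated library. Nr4a3 (ENSRNOG00000005964), also known as NOR-1, had 0 treated and 197 saline reads, a normalised count of 0 in treated and 170.9 in saline cells. At the saline level the treated library would have been due 103.4 reads. Measured against a treated floor of 3 reads, Nr4a3 was at least 34.5-fold lower, while the exact 95% limit of the reads lay at 27.8-fold. Nr4a3 was among 12 symbols with 0 treated reads of the 7692 (0.156%) with at least 100 saline reads, a filter that it passed through the saline library alone, so the share is a description.

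Nr4a1 (ENSRNOG00000007607), or Nur77, linked to negative selection of thymocytes and to restraint of inflammatory cells, had 0 treated and 48 saline reads, a normalised count of 0 in treated and 41.6 in saline cells. Its due number in the treated library was 25.2 reads. Nr4a1 was at least 8.4-fold lower against the floor, with an exact 95% limit of 6.57-fold. Among 9742 symbols with at least 40 saline reads, a filter of the same kind, 0.482% had 0 treated reads.

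Nr4a2 (ENSRNOG00000005600), or Nurr1, best known for dopamine neuron development, kept 13 reads in the treated library, against 185 in the saline library. The normalised count was 21.5 in treated cells, against 160.5 in saline cells, and the log2 fold was -2.84 (-3.84 to -2.09). The fold of Nr4a2 was above that of Nr4a3 by at least 1.67 on the log2 scale, the lower end of the exact interval. Whether Nr4a1 and Nr4a2 differ could not be read from these counts, as the interval of their difference had no lower end and reached up to 0.40.

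Csrnp1 (ENSRNOG00000033433) had normalised counts of 526.9 in treated cells and 5232 in saline cells. With 319 treated and 6032 saline reads it was the second well-covered member. The log2 fold of -3.31 (-3.48 to -3.15) was below that of Egr1, with Egr1 above Csrnp1 by 0.80 (0.60 to 1.01). Egr1 and Csrnp1 carried most reads of the set, and the other 5 genes together had 42 treated and 1474 saline reads.

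In order of log2 fold the genes ran Nr4a3, Nr4a1, Egr3, Egr2, Csrnp1, Nr4a2 and Egr1, the first 2 by values that depend on the added 1. Of 20 pairs of members with treated reads in at least 1 of the pair, 10 had an interval of the difference without 0 and 10 had one that held 0, with no adjustment over pairs. All pairs of neighbours in this order had an interval that held 0, apart from Nr4a3 and Nr4a1, which had no treated read to compare. Egr2 and Csrnp1 differed by -0.16 (-1.10 to 0.66), and Egr1 and Nr4a2 by 0.39 (-0.43 to 1.34).

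The values were deposited per transcript, and the 7 genes had 10 listed transcripts, all classed as protein coding from Ensembl. Egr3 was the gene whose transcripts split. ENSRNOT00000077072 had 16 treated and 424 saline reads and a log2 fold of -3.75 (-4.62 to -3.08). ENSRNOT00000024067 had 0 treated and 346 saline reads, so that it was at least 60.6-fold lower than in saline cells by the same floor, with an exact 95% limit of 49-fold. The second transcript thus made up 0% of the Egr3 reads in treated cells and 44.9% in saline cells. It was among the 1.84% of 8459 transcripts with at least 100 saline reads that had 0 treated reads, again a description. How reads were assigned among transcripts of 1 gene is not stated in the labels, and its part in this split was not tested.

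Nr4a1 had 0 treated reads for both of its transcripts, ENSRNOT00000010171 with 42 saline reads and ENSRNOT00000078663 with 6. The interval of ENSRNOT00000078663 reached up to 0.69, so at this depth it cannot be read as lower. For Csrnp1, ENSRNOT00000083004 held 319 of 319 treated and 6019 of 6032 saline reads. The minor ENSRNOT00000050543 had 0 treated and 13 saline reads. Egr1, Egr2, Nr4a2 and Nr4a3 had 1 listed transcript each.

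**Figure D2:**
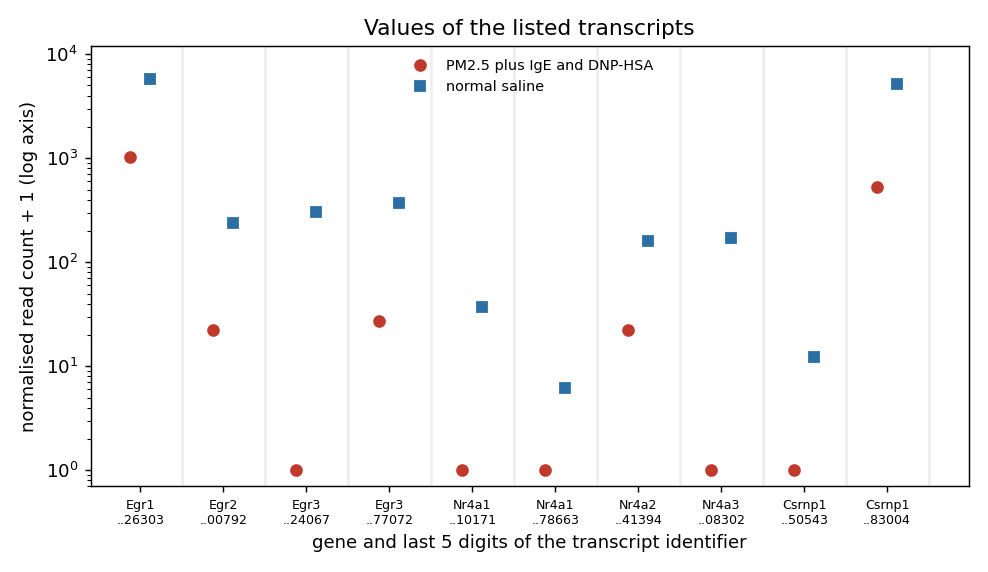
Normalised read count plus 1 (log axis) of the 10 listed transcripts, named by gene and by the last digits of the Ensembl identifier, with the library of cells given PM2.5 plus IgE and DNP-HSA as red circles and the normal saline library as blue squares. Each transcript has a lower value in the treated library, and 5 of them have 0 treated reads, including 1 of the Egr3 transcripts with 346 saline reads. The Nr4a1 transcript with 6 saline reads has an interval that holds 0.

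In the authors' deposited table the fold changes run the other way, saline over treated. With 1 library per group, its p-values rest on no replicates of a condition and do not measure variation between them. The authors selected 57 transcripts in a list of mRNA, or 0.28% of 20367 transcripts that also include noncoding RNA. Of the 10 transcripts of the members, 1 was among these 57. It was the Egr3 transcript ENSRNOT00000077072, with a log2 fold change of 3.75 and a p-value of 0.039 in the authors' deposited table. A p-value under 0.05 was listed for 65 transcripts, 0.319% of all. Egr2 (0.0511) and Nr4a2 (0.0729) had the next lowest p-values of the members in the authors' deposited table, followed by Egr1 (0.253) and the main Csrnp1 transcript (0.28). The transcripts with 0 treated reads had higher p-values there, with 0.641 for both Nr4a3 and the second Egr3 transcript and 0.291 for the main Nr4a1 transcript. The adjusted p-value was 0.92 for all 10 transcripts in the authors' deposited table, which is also the lowest adjusted value over all 20367 transcripts.

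Promoter sequence was available for 4 of the 7 genes in the RefSeq promoter table for the rat build GRCr8: Egr1, Egr2, Nr4a1 and Nr4a2. The 250 bases before the start were searched on both strands for elements through which early genes are known to be switched on. The elements were the CArG box bound by serum response factor, the CRE half-site CGTCA bound by CREB, the full CRE TGACGTCA, the CRE variant TGCGTCA, the EGR site GCGNGGGCG, the NR4A site AAAGGTCA, the AP-1 site TGANTCA and the MEF2 site. CGTCA also lies inside the full CRE and the variant. Egr2 and Nr4a1 are shown because they hold the 2 arrangements found, a CArG box beside a CRE half-site and a row of CRE half-sites. Capitals mark CArG boxes and CGTCA matches, and the Egr2 stretch is chr20:21054442-21054691 on the minus strand and the Nr4a1 stretch chr7:134259888-134260137 on the plus strand, both 5′ to 3′ in the direction of the gene.
Egr2: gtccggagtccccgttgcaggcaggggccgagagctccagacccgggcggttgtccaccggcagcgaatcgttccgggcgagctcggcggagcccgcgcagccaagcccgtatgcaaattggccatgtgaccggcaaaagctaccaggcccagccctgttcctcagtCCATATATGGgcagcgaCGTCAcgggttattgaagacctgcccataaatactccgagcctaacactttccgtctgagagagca
Nr4a1: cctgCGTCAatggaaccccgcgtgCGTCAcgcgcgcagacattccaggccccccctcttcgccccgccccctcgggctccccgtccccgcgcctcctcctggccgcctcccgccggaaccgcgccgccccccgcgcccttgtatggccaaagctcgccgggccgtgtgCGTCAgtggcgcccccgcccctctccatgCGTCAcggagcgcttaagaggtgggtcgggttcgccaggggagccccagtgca

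A CArG box was found in Egr1 (2 matches) and Egr2 (1 match) and in 1.5% of the 33469 promoters of the same length. In both genes a CArG box lay at -83 to -74 from the start with a CGTCA at -66 to -62, and Egr1 had a further CArG box at -105 to -96 and a further CGTCA at -135 to -131. The CGTCA letters occurred in 18.2% of all promoters. Nr4a1 held 4 of them, each as the variant TGCGTCA, which 1.66% of promoters hold at least once. Nr4a1 also held 1 EGR site on the minus strand at -73 to -65, a motif found in 4.29% of promoters. Nr4a2 held 1 CGTCA at -8 to -4. TGACGTCA (1.59% of promoters), AAAGGTCA (1.24%), TGANTCA (6.34%) and the MEF2 site (0.523%) had no match in these 4 windows. These matches describe letters and not bound sites.

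**Figure D3:**
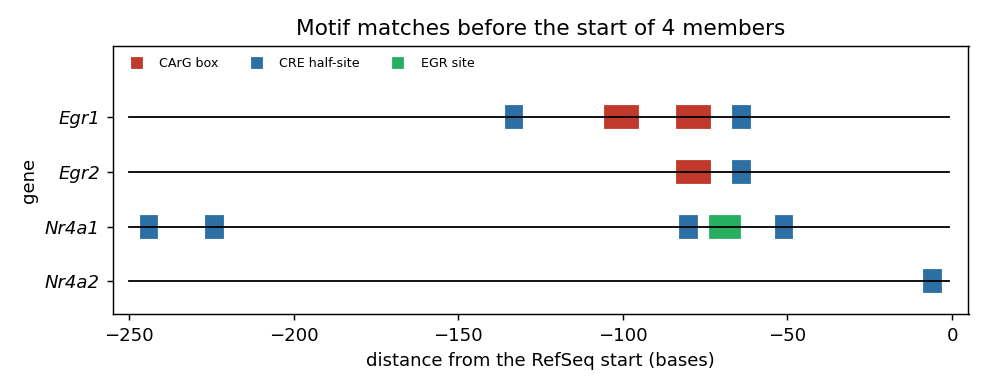
Motif matches in the 250 bases before the RefSeq start of Egr1, Egr2, Nr4a1 and Nr4a2, with distance from the start in bases on the horizontal axis and 1 gene per line. Red boxes are CArG boxes, blue boxes CRE half-sites and the green box an EGR site; Egr1 and Egr2 share a CArG box at -83 and a half-site at -66, and Nr4a1 has 4 half-sites.

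Close relatives and partners of the members stayed nearer to 0. Of 9 such genes 5 were measured; Egr4, Csrnp3, Rxrg and Wt1 were not. By the rule of size 1 of 5 was lower and 0 higher, with a median log2 fold of -0.15, and this share is near the background of 19.1%. Of the 4 whose normalised count reached 50, 1 was lower, against 8.59% of all symbols at that level. These are too few genes to set their share apart. The lower one was Nab2, a corepressor that binds EGR proteins and is itself a known EGR target, with 73 treated and 391 saline reads and a log2 fold of -1.48 (-1.87 to -1.13). Its relative Nab1 had normalised counts of 216.4 in treated cells and 212.5 in saline cells and a log2 fold of 0.026 (-0.29 to 0.34), whose sign turned under another scaling. Nab2 stood below Nab1 by -1.52 (-2.01 to -1.03) and Egr1 below Nab2 by -1.02 (-1.40 to -0.62). Csrnp2, the relative of Csrnp1, had 26 treated and 55 saline reads and a log2 fold of -0.15 (-0.88 to 0.55). Csrnp1 stood below Csrnp2 by -3.16 (-3.88 to -2.41). The retinoid X receptors, with which Nr4a1 and Nr4a2 can form dimers, were at -0.05 for Rxra (-0.64 to 0.51) and -0.68 for Rxrb (-0.93 to -0.44).

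The factors and cofactors that control these genes were measured for 25 of 26, with 3 lower and 2 higher by the rule. That is 12% lower and 8% higher, against 19.1% and 12.1% of all symbols. Among the 22 whose normalised count reached 50, 2 were lower and 1 higher, against 8.59% and 7.47% of all symbols at that level. Their share is thus not set apart from the background. With equal library totals, and with the highest transcript of each gene alone, 5 were lower. The share over all symbols was not counted again under those settings, so those counts have no background beside them. Their median log2 fold was -0.58, and 19 of 25 (76%) were below 0, against 54.3% of all symbols tested. Serum response factor (Srf) was at -0.82 (-1.15 to -0.50) and its cofactor Mkl1 at -0.81 (-0.94 to -0.69). The ternary complex factors, which carry ERK signals to serum response factor, were at -0.30 for Elk1, -0.41 for Elk3 and -0.58 for Elk4.

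On the CREB side, Creb1 was at 0.33 (-0.0049 to 0.67), Atf1 at 0.16 and Crem at -0.32. The CREB coactivators spread more widely, with Crtc1 at -0.54, Crtc2 at -0.40, Crebbp at -0.88 and Ep300 at -0.74. Crtc3 was lower by the rule at -1.27 (-1.96 to -0.67, 26 treated and 121 saline reads).

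The MEF2 factors, calcium-responsive activators of Nr4a1, went both ways. Mef2a was higher at 1.49 (1.23 to 1.77), with 276 treated and 186 saline reads. Mef2d was lower at -1.25 (-1.46 to -1.04), with 240 treated and 1085 saline reads, and Mef2b had 0 treated and 17 saline reads, at least 2.98-fold lower by the floor with an exact 95% limit of 2.17-fold. Mef2c, at 0.51 (-0.34 to 1.38), had few reads. The MEF2 repressors were at -0.997 for Cabin1, -0.94 for Hdac4, -0.28 for Hdac5 and -0.87 for Hdac7. The calcium-activated NFAT factors were at -0.996 for Nfatc1, -0.79 for Nfatc2 and 0.23 for Nfatc3. Nfatc4, with 3 treated and 0 saline reads, was called higher by the rule but stayed under 2-fold by the floor.

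**Figure D4:**
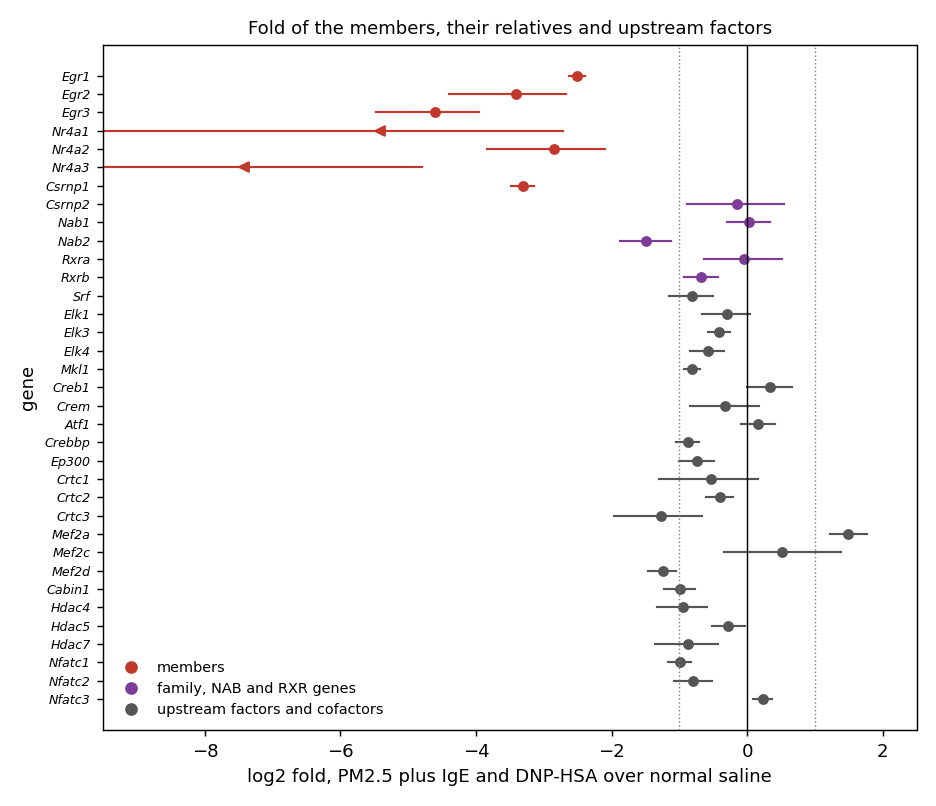
Log2 fold of cells given PM2.5 plus IgE and DNP-HSA over normal saline cells for the 7 members (red), their relatives and partners (purple) and upstream factors with reads in both libraries (grey), 1 gene per line. Lines are exact 95% intervals of the ratio, covering counting error only; triangles mark genes with 0 treated reads, whose intervals run off the axis, and dotted lines mark a log2 fold of 1 either way. The members lie between -7.43 and -2.51, while Nab2 at -1.48 is the lowest of the genes drawn in purple and grey.

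Other gene lists of receptor activation were compared by the same rule. These lists too were chosen with earlier results of these data known, so their shares are a description. The shares of all symbols given beside them include sparsely read ones. Where the normalised count reached 50, they were 8.59% lower and 7.47% higher. AP-1 and related bZIP genes had 7 of 13 lower (53.8%) and 0 higher, against 19.1% and 12.1% of all symbols, with a median log2 fold of -1.03. Of the 7, Batf3 (0 treated and 3 saline reads) had a saline value under the treated floor. Its interval reached up to 2.20, so it cannot be read as lower, and the median without it was -1.01. Fosb was at -4.16 (59 treated and 2031 saline reads), Fos at -2.51, Jun at -1.08 and Jund at -0.72. Egr1 and Fos differed by 0.0077 (-0.35 to 0.38), while Egr1 stood below Jun by -1.43 (-1.57 to -1.28). The dual-specificity phosphatase, Sprouty and Spred genes, which dampen MAPK signalling, had 5 of 13 lower (38.5%, against 19.1% of all symbols) and 0 higher and a median of -0.84. Among them Spry1 was at -2.84 (3 treated and 48 saline reads), Dusp6 at -1.71 and Dusp4 at -1.004. Dusp4 lost its call under trimmed mean of M-values and with the median log2 fold set to 0, which left 4 lower. With equal library totals 6 were lower.

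Cytokines and surface proteins of activated cells had 10 of 17 lower (58.8%) and 3 higher (17.6%), against 19.1% and 12.1% of all symbols, with a median of -1.14. Here Csf2 (0 treated and 4 saline reads) had a saline value under the treated floor. Its interval reached up to 1.53, so it cannot be read as lower. Without Csf2, and with the other genes at 0 reads set to their bound, the median was -1.12. Il4 was at least 15.1-fold lower by the floor (0 treated and 86 saline reads, exact 95% limit 12-fold), Csf1 was at -1.60 and Ccl2 at -1.97. Cd69, an early activation antigen, was at least 8.89-fold higher by the floor (14 treated and 0 saline reads, exact 95% limit 6.32-fold). Ccl3 was also called higher, at 1.91 (1.64 to 2.19, 327 treated and 165 saline reads). So was Ccl7, at 1.14 (0.28 to 2.09, 25 treated and 21 saline reads). The remaining early genes had 8 of 25 lower (32%) and 2 higher (8%), against 19.1% and 12.1% of all symbols, and a median of -0.19. Of the lower ones Gem (0 treated and 5 saline reads) had a saline value under the treated floor. Its interval reached up to 1.06, so it cannot be read as lower. Without Gem, and with Cyr61 set to its bound, the median was -0.13. Btg1 was at 0.51 and Bhlhe40 at -0.61. Called higher were Rgs1 at 1.25 (1.08 to 1.42, 659 treated and 527 saline reads) and Cyr61. Cyr61 had 4 treated and 0 saline reads, with an exact 95% limit of 1.26-fold higher. In these 4 lists the genes below -2.51 whose normalised count reached 50 were Fosb, Il3, Il4, Il13, Lif and Osm, with Fos at the value of Egr1.

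**Figure D5:**
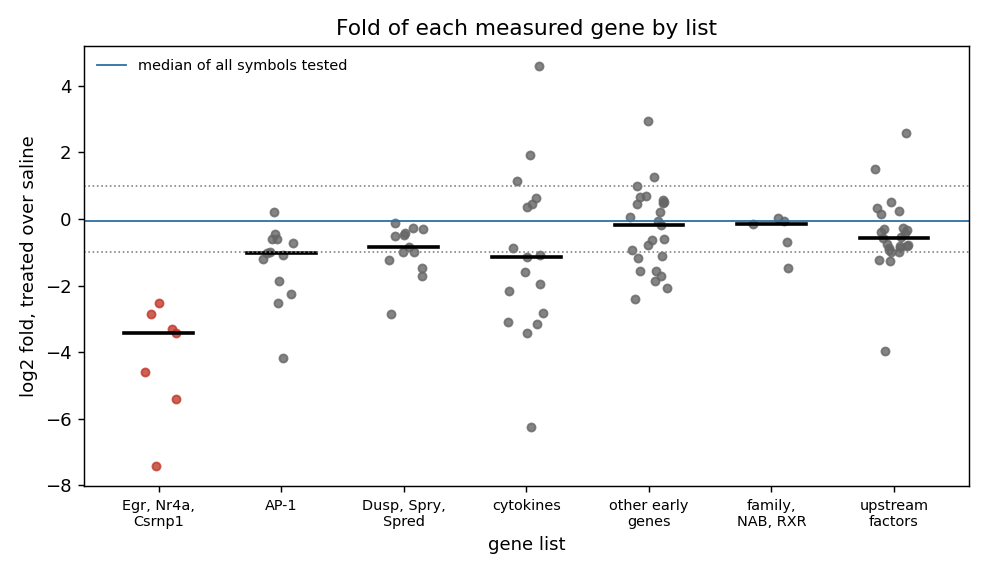
Log2 fold of each measured gene, cells given PM2.5 plus IgE and DNP-HSA over normal saline cells, by gene list; points are genes, black bars list medians, the blue line the median of all symbols tested and dotted lines a log2 fold of 1 either way. The 7 members (red) have a median of -3.41 and no gene above -2.51, whereas every other list holds genes within 2-fold. Genes with 0 reads in a library are drawn at their value with 1 added.

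The genes whose levels in the 2 libraries were most like those of a member were sought by Euclidean distance in log2 of the normalised count plus 1, over these 2 libraries. Nr4a2 lay nearest to Tbkbp1 (distance 0.16), Acsbg1 (0.38) and Socs1 (0.38). Egr2 lay nearest to Socs1 (0.42), a feedback inhibitor of cytokine signalling, then to Nr4a2 (0.56) and Zfp672 (0.61). Csrnp1 and Egr1 were 0.96 apart; Egr1 was the closest symbol to Csrnp1, followed by Ccl2 (0.98) and Stab1 (1.02). The closest symbols to Egr1 were AABR07062513.1 (0.93) and Hist1h4b (0.94), with Csrnp1 next. Egr3 had no near neighbour, with Cass4 (1.5), Egr2 (1.51) and Osm (1.56) the closest. A distance over 2 libraries describes these levels and rests on few values.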

How the data were processed

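Libraries were strand-specific and prepared with a TruSeq kit from total RNA, per the labels' protocols. FastQC, STAR 2.5, Cuffnorm and DESeq 1.22.1 are named in the submitters' processing notes without role or order; build and annotation: not given in the sources used here. Each transcript was deposited by the authors with a log2 value per library. After undoing the log2 and subtracting 1, 100% of the values were whole multiples of 1 step per library, within 1e-06 reads, which gives size factors of 0.605 for the treated and 1.15 for the saline library and the read counts used here. The authors deposited a p-value and an adjusted p-value for each transcript, given here as listed. A further 6 columns that repeat these values were not used.

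Transcripts were summed by symbol, leaving out 1276 without one. Folds use the normalised count plus 1. Where a library had 0 reads, the fold was taken against a floor of 3 reads, equal to 4.95 (treated) and 2.6 (saline) normalised counts. A gene whose other value lay under that floor had no bound and was left out of the medians with bounds. Intervals are exact Clopper-Pearson or, between genes, exact conditional intervals of a 2 by 2 table; reads are not independent molecules. The precision follows the reads, from 616 and 6684 for Egr1 to 0 and 48 for Nr4a1 in the treated and saline libraries. Members and lists were chosen with earlier results of these data known. The named genes were the members, their relatives and upstream factors, the 2 largest folds and 2 highest means of each other list (others named were picked after their values were seen), and the 3 nearest symbols. The procedure was tested on simulated data that held counting error alone, so it could not check variation between libraries. Alternatives were 2 pseudocounts, 3 scalings, the highest transcript alone and 3 filters. Software was SciPy 1.17.1, pandas 2.3.3 and NumPy 2.4.6 under Python 3.11.15, with Matplotlib 3.10.9 for figures.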

Additional observations from a re-analysis of the deposited data

How the results depend on the processing

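All 7 members stayed lower by the rule of size under pseudocounts of 0.5 and 5, equal library totals, trimmed mean of M-values, the median log2 fold set to 0 and the highest transcript alone. Under the filter of 50, Nr4a1 left the count and 6 of 6 were lower. The rescalings moved log2 folds by -0.053, 0.014 and 0.029. With the highest transcript alone, Egr3 was at -3.75, outside its interval, since its other transcript had 0 treated reads. Among upstream factors, 5 were lower with equal totals and 5 with the highest transcript alone; 1 was higher under filters of 5 and 50, with a pseudocount of 5 and with the highest transcript alone. With a filter of 50, 5 other early genes were lower and 1 higher, and 1 cytokine was higher. No paired analysis was possible because each group has 1 library. Dusp4 lost its call under the trimmed mean and the median set to 0, while 6 genes of its list were lower with equal totals. AP-1 genes had 8 lower with equal totals and 6 with a pseudocount of 5. Cytokines had 7 lower with a pseudocount of 5 and with the filter of 50, and 11 with the highest transcript alone. Depth leaves the folds of Nr4a1 and Nr4a3, with 0 treated reads, without a lower end.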
